A study of Mus musculus with 6 samples.

Results

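The genes described here are 10 liver enzymes that remove superoxide and peroxides, chosen by gene symbol with earlier results of these data known. They were Sod1, Sod2, Cat, Gpx1, Gpx4, Prdx1, Prdx3, Prdx5, Prdx6 and Txn2, which are 10 of the 17975 genes in the expression table, and all 10 were among the 13805 genes with enough reads to be tested. RNA from whole mouse liver was sequenced in 3 WT mice and 3 Hom mice, 1 liver per mouse. Hom mice carried Nek7 fl/fl alleles together with Alb-Cre, in which the albumin promoter drives Cre in hepatocytes, so that Nek7 is deleted in hepatocytes and kept in the other cells of the liver. By the breeding scheme of the study, WT mice carried either Nek7 fl/fl alleles or Alb-Cre, and which of these each sequenced WT liver had was not given in the sources used here. The ages that the study gives for its mice are not tied to the sequenced livers. The study was concerned with mitochondrial reactive oxygen species and liver fibrosis after loss of NEK7, and the comparison of WT with Hom livers addressed which transcripts differed between them.

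Superoxide leaks from the respiratory chain and is made by NADPH oxidases. Superoxide dismutases turn it into hydrogen peroxide, SOD1 in the cytosol and SOD2 in the mitochondrial matrix. Hydrogen peroxide is then broken down by catalase in peroxisomes, by the glutathione peroxidases, which spend glutathione, and by the peroxiredoxins, most of which are returned to their reduced form by thioredoxins. Hepatocytes, whose mitochondria and peroxisomes oxidise fatty acids and amino acids, are known for large amounts of these enzymes.

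Nek7, the deleted gene, was at 62.9, 69.1 and 63.6 CPM in WT replicates 1 to 3 and at 14.5, 18.1 and 16.7 CPM in Hom replicates 1 to 3. The Hom mean was 25.2% of the WT mean, with a log2 fold change of -1.99 (SE 0.10) and an adjusted p of 1.59e-04 (edgeR, quasi-likelihood F test, Benjamini-Hochberg over all tested genes). CPM is a gene's estimated read count relative to the size of its library after TMM scaling, which sets the bulk of genes to no net change. Gene tests given as edgeR are this test, with an adjusted p under 0.05 as the threshold. Total estimated counts lay between 19349418 and 19730236 per liver, and the smallest count of any of the 10 enzymes in any liver was 1489. WT replicate 1 and Hom replicate 1 stood apart from the others of their groups. The chi-square per degree of freedom over genes was 143 and 163 between WT replicate 1 and the other two WT livers, against 23.8 between those 2, and 85.3 and 79.9 for Hom replicate 1, against 26.6. Summed neutrophil markers reached 170 CPM in WT replicate 1 against 6.22 and 11.8 CPM in the other WT livers, and 4 Y-linked genes were low in Hom replicate 1 (Ddx3y 0, Kdm5d 0, Eif2s3y 4 and Uty 149 counts) but at 243 counts or more in the 5 remaining livers. The labels give no sex, and the study reports that its experiments with knockout mice used both sexes. Whether the sex of this mouse differed was not tested. With both of these livers left out, the counts of enzymes called below did not change (6 lower, 1 higher).

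Of the 10 enzymes, 6 fell in Hom livers (Cat, Sod1, Prdx6, Sod2, Txn2 and Prdx5), 1 rose (Gpx4), and 3 did not pass the test (Gpx1, Prdx1 and Prdx3). Among all tested genes, 20.1% fell and 21.5% rose. The median log2 fold change of the enzymes was -0.43, beside -0.0018 over all tested genes, and single values ran from -1.46 for Cat to 0.81 for Gpx4. In TMM-scaled CPM, 7 of the 10 had every Hom liver below every WT liver, and 1 had every Hom liver above. These patterns were shown by 27% and 28.7% of all tested genes. The median for hepatocyte markers was -0.70 (log2), and in bulk tissue fewer hepatocytes and less of a transcript per hepatocyte cannot be told apart. Choice of scaling moved these values. With library size alone, the median of all tested genes shifted to 0.45, the median of the enzymes was 0.03, and 2 enzymes (Cat and Sod1) were lower and 2 (Gpx4 and Prdx3) higher, beside 4.65% and 47.6% of all genes. Upper-quartile factors gave 5 lower and 1 higher (14.9% and 25.2% of all genes), and a correction for gene length gave 5 lower and 1 higher (20.1% and 21%). Differences of 1 or more on the log2 scale were seen in 2 enzymes, both lower (Cat and Sod1), and in 0 higher, beside 4.17% and 13.2% of all genes.

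**Figure D1:**
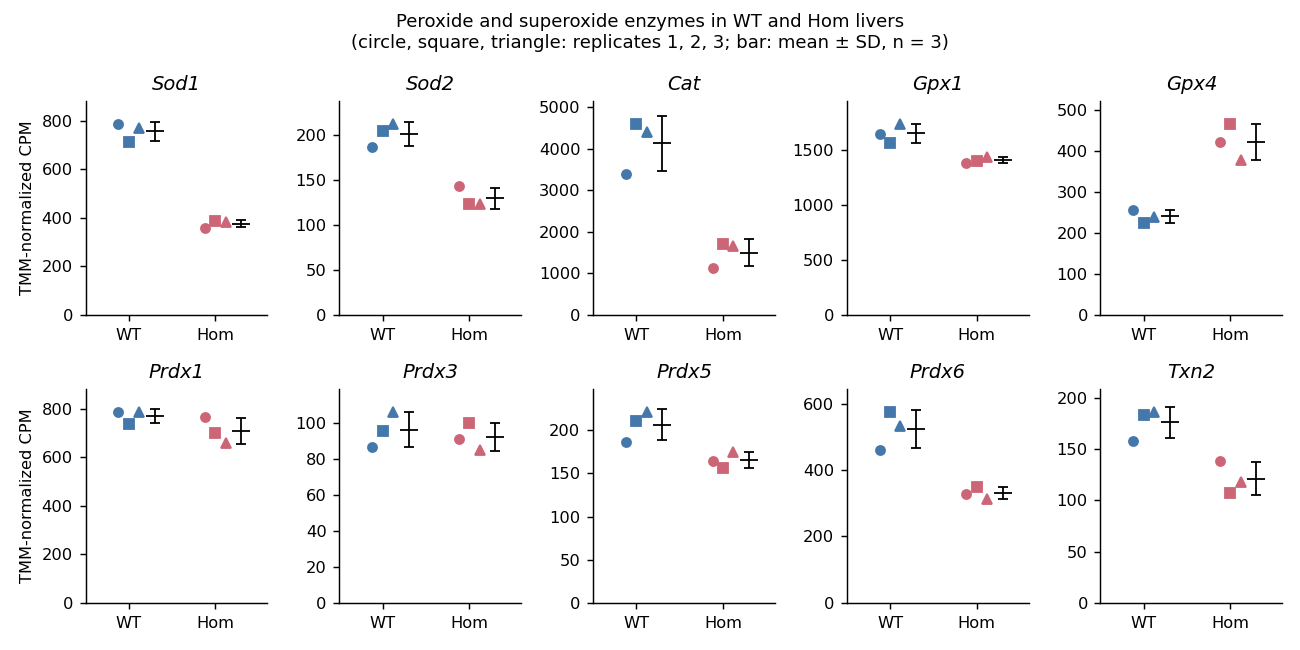
TMM-normalized CPM of the 10 enzymes in each liver (y axes start at 0), with circles, squares and triangles for replicates 1, 2 and 3 and bars for mean ± SD (n = 3). Cat and Sod1 show the widest gaps between WT and Hom livers downwards, Gpx4 is the panel with Hom livers above WT livers, and the groups overlap for Prdx1 and Prdx3.

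Promoter sequence is shown for 4 of the enzymes, the 2 that fell most (Cat, Sod1), the 1 that rose (Gpx4) and Prdx1, which did not pass the test and is a classical NRF2 target. The stretches are from RefSeq on GRCm38.p6, stop where an annotated exon begins inside the window, and are written 5′ to 3′ on the strand of the gene. Capitals mark CCAAT on either strand (ATTGG is the reverse) and the core of the antioxidant response element, TGACNNNGC, on either strand. No marked stretch overlaps another. Gpx4 has several annotated starts, and the stretch shown belongs to the most upstream of a cluster of 3, while another start further upstream is not shown.
Cat (chr2:103485161-103485403, minus strand): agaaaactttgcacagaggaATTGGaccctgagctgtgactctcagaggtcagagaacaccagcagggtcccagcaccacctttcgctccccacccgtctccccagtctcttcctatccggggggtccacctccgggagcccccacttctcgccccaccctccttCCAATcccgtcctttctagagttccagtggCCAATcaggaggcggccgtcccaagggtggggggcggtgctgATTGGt
Sod1 (chr16:90220512-90220753, plus strand): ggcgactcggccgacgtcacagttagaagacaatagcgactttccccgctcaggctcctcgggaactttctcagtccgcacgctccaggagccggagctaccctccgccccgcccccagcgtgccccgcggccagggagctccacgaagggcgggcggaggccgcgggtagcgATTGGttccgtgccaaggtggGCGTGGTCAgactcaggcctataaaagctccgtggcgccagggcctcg
Gpx4 (chr10:80053315-80053487, plus strand): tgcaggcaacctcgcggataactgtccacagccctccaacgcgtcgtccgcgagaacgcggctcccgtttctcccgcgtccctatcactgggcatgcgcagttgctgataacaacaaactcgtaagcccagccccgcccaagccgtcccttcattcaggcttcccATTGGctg
Prdx1 (chr4:116685349-116685543, plus strand): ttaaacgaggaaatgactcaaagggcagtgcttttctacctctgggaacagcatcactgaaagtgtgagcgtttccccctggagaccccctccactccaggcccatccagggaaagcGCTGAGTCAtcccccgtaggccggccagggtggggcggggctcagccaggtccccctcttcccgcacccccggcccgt

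Windows of 250 bases before to 50 bases after the start were on hand for 9 of the 10 enzymes (12 windows, since Gpx4 had several), and Prdx6 had no entry. The core TGACNNNGC was found in 2 of these 12 windows, as GCTGAGTCA from 133 to 125 bases before the start of Prdx1 and as GCGTGGTCA from 56 to 48 bases before the start of Sod1, and 12.4% of 32851 promoter windows held it. CCAAT was found in 7 of the 12 windows, belonging to Cat, Gpx4, Sod1, Sod2 and Txn2, beside 37.4% of all windows. The GC box GGGCGG was in 11 of the 12, beside 35.7%. The palindromic motif of NRF1 was in 2 windows, both of Gpx4, beside 4.6%, and the FOXO motif TGTTTAC was in 0 of the 12, beside 3.65%. Cat and Gpx4, which moved in opposite directions, both held CCAAT. A match describes letters in the window and was not tested for binding.

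Sod1 (gene ID 20655), the cytosolic copper and zinc superoxide dismutase, was at 787, 713 and 769 CPM in WT livers and at 359, 386 and 382 CPM in Hom livers. All 3 Hom livers lay well below the lowest WT liver. The mean fell from 756 ± 38.8 to 376 ± 14.5 CPM (SD, n = 3), 49.7% of WT, with a log2 fold change of -1.01 (SE 0.11, adjusted p = 0.000948 in edgeR's test). It was also lower with library size alone, at -0.55 (adjusted p = 0.0162 by edgeR). Sod2 (20656), the manganese enzyme of the mitochondrial matrix, was at 187, 205 and 213 CPM in WT and at 143, 124 and 123 CPM in Hom livers, and the groups did not overlap. Its log2 fold change was -0.63 (SE 0.10, edgeR adjusted p = 0.00373), and with library size alone it was -0.18 and did not pass (edgeR adjusted p = 0.134). Sod1 fell further than Sod2 with TMM factors. With the correction for gene length their log2 fold changes were closer, at -0.78 and -0.70 (edgeR adjusted p = 0.00236 and 0.00296). Unlike a single factor per library, this correction can alter a ratio of genes that differ in length. The log2 ratio of Sod2 to Sod1 counts within a liver was higher in every Hom liver than in every WT liver, by 0.38 (SE 0.13), a ratio that no single factor per library can alter. With 3 livers against 3, the exact two-sided permutation test cannot go below p = 0.1, the value it gave here (0.16 after Benjamini-Hochberg adjustment over 8 ratios).

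Cat (12359), catalase of the peroxisome, had the largest fall of the 10. It was at 3384, 4599 and 4392 CPM in WT livers and at 1133, 1709 and 1662 CPM in Hom livers, and replicate 1 was the lowest in both groups. The mean fell from 4125 ± 650.1 to 1501 ± 319.6 CPM (n = 3), 36.4% of WT, with a log2 fold change of -1.46 (SE 0.22, edgeR adjusted p = 0.00316). With library size alone it was -0.98 (edgeR adjusted p = 0.0107). Catalase transcripts made up 22.8%, 29.5% and 27.1% of the summed TPM, a level that divides counts by transcript length, of the 10 enzymes in WT livers, and 11%, 15.5% and 15.6% in Hom livers.

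Among the glutathione peroxidases, Gpx1 (14775), the abundant selenoprotein of cytosol and mitochondria, was at 1653, 1571 and 1743 CPM in WT and at 1389, 1404 and 1440.2 CPM in Hom livers. The Hom livers sat close together just under the lowest WT liver. The log2 fold change was -0.23 (SE 0.13) and did not pass edgeR's test (adjusted p = 0.182), while DESeq2 called it (adjusted p = 0.0151), and library size alone turned its direction to 0.22 (edgeR adjusted p = 0.221). Gpx4 (625249), the selenoprotein that reduces lipid peroxides in membranes and restrains ferroptosis, was at 257, 226 and 240.0 CPM in WT and at 423, 468 and 379.9 CPM in Hom livers. Every Hom liver was above every WT liver. The mean rose 1.76-fold, from 241 ± 15.9 to 423 ± 43.8 CPM (n = 3), with a log2 fold change of 0.81 (SE 0.12, edgeR adjusted p = 0.00249), and it rose on every scale tried, to 1.27 with library size alone.

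The proportions of Gpx4, Cat and Gpx1 were then compared within each liver. In TPM, Gpx4 stood at 0.208, 0.192 and 0.184 of Gpx1 in WT livers and at 0.409, 0.447 and 0.354 in Hom livers, and the log2 ratio was higher by 1.04 (SE 0.11) without overlap. Cat stood at 0.815, 1.16 and 1.00 of Gpx1 in WT livers and at 0.325, 0.485 and 0.459 in Hom livers, lower by 1.24 on the log2 scale (difference -1.24, SE 0.23), also without overlap. Each of these had an exact permutation p of 0.1, the smallest possible with 3 livers per group (0.16 adjusted over 8 ratios).

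**Figure D2:**
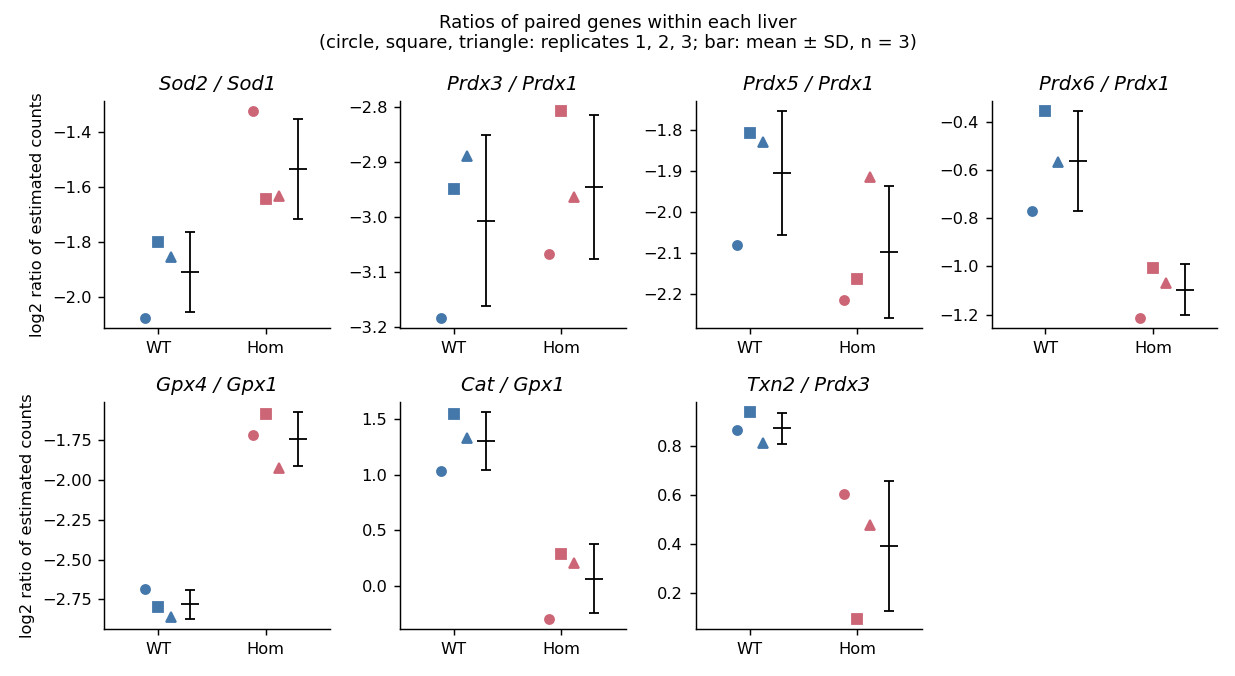
Log2 ratio of estimated counts for 7 gene pairs within each liver, with circles, squares and triangles for replicates 1, 2 and 3 and bars for mean ± SD (n = 3); y axes differ between panels and do not start at 0. WT and Hom livers separate for Sod2 to Sod1, Prdx6 to Prdx1, Gpx4 to Gpx1, Cat to Gpx1 and Txn2 to Prdx3, and overlap for Prdx3 to Prdx1 and Prdx5 to Prdx1.

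The 4 peroxiredoxins did not move alike. Prdx6 (11758), the member that draws on glutathione and acts on phospholipid peroxides, was at 462, 576 and 531 CPM in WT livers and at 329, 348 and 314 CPM in Hom livers, without overlap. Its log2 fold change was -0.66 (SE 0.12, edgeR adjusted p = 0.00598), and -0.20 with library size alone (edgeR adjusted p = 0.197). Prdx5 (54683), found in mitochondria, peroxisomes and cytosol, was at 186, 211 and 221 CPM in WT and at 165, 156 and 175 CPM in Hom livers. The Hom livers lay below the WT livers by a narrow margin. Its log2 fold change of -0.32 (SE 0.10) was just past the threshold (edgeR adjusted p = 0.0409). The call was lost without any one of WT replicate 2, WT replicate 3 and the 3 Hom replicates (edgeR adjusted p between 0.0718 and 0.131), and with library size alone the direction turned to 0.14. Exons of Prdx5 overlap those of Trmt112 on the opposite strand, which fell too (-0.45, SE 0.08, edgeR adjusted p = 0.00481), and since the strandedness of the libraries was not given, reads of the 2 genes may not have been told apart.

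Prdx1 (18477), the main cytosolic peroxiredoxin, was at 788, 737 and 786 CPM in WT and at 763, 700.0 and 659 CPM in Hom livers, and Prdx3 (11757), of the mitochondrial matrix, was at 86.7, 95.5 and 106 CPM in WT and at 91.1, 100.0 and 84.6 CPM in Hom livers. The groups overlapped for both. Prdx1 had a log2 fold change of -0.12 (SE 0.12, edgeR adjusted p = 0.436) and Prdx3 of -0.06 (SE 0.11, edgeR adjusted p = 0.651), while library size alone turned both to the positive side, at 0.33 and 0.40, the second past the threshold (edgeR adjusted p = 0.0257). Within livers, Prdx6 fell against Prdx1 in log2 ratio by 0.53 (SE 0.13) without overlap (exact permutation p = 0.1), whereas the ratios of Prdx3 and Prdx5 to Prdx1 overlapped (0.06 and -0.19, exact permutation p = 0.7 and 0.2). Txn2 (56551), the mitochondrial thioredoxin that reduces PRDX3 and PRDX5, was at 158, 183 and 186 CPM in WT and at 139, 107 and 118 CPM in Hom livers. It did not overlap between groups, with a log2 fold change of -0.54 (SE 0.12, edgeR adjusted p = 0.0137). Without Hom replicate 3 it missed the threshold (edgeR adjusted p = 0.0521), and with library size alone it was -0.09 (edgeR adjusted p = 0.467). The Txn2 to Prdx3 ratio in TPM was 2.06, 2.17 and 1.99 in WT and 1.72, 1.21 and 1.57 in Hom livers, so the thioredoxin stood lower against its peroxiredoxin in every Hom liver, by 0.48 in log2 ratio (difference -0.48, SE 0.16, exact permutation p = 0.1).

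**Figure D3:**
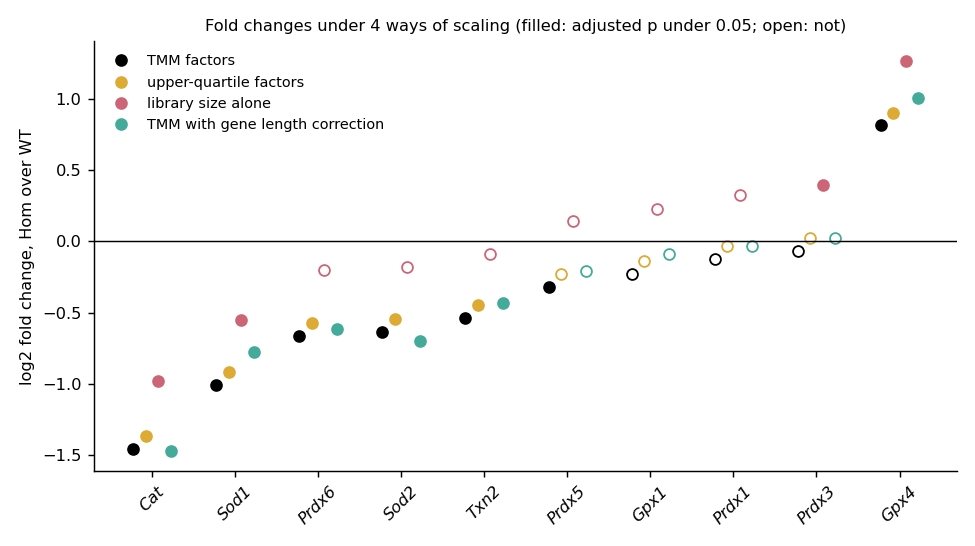
Log2 fold change (Hom over WT, y axis) of each enzyme under 4 ways of scaling the libraries, with filled points at an adjusted p under 0.05 and open points otherwise. Points for library size alone lie above those for TMM factors in every enzyme, and Cat, Sod1 and Gpx4 stay filled on the same side of 0 under all 4.

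Levels of different enzymes were compared in TPM only. In WT livers the order of mean TPM was Gpx1, Cat, Sod1, Prdx1, Gpx4, Prdx6, Prdx5, Txn2, Prdx3 and Sod2, and in Hom livers it was Gpx1, Sod1, Cat, Gpx4, Prdx1, then the same 5. In WT livers Gpx1 (2117 to 2711 TPM), Cat (2208 to 2466 TPM) and Sod1 (1626 to 2186 TPM) were the 3 most abundant, and the ranges of Gpx1 and Cat overlapped. In Hom livers Gpx1 (2848 to 3308 TPM) stood clear of Sod1 (1248 to 1543 TPM) and Cat (925 to 1603 TPM), whose ranges overlapped each other and those of Gpx4 (1159 to 1478 TPM). At the lower end, Prdx3 (91.8 to 103 TPM in WT) and Sod2 (72.8 to 80.9 TPM) were the least abundant of the 10. Together the 10 enzymes made up 0.967%, 0.836% and 0.877% of all TPM in WT livers and 0.841%, 1.03% and 0.965% in Hom livers, so the summed share overlapped between groups.

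Relatives of these enzymes from the same families included 12 genes in the table, of which 10 were tested, 4 fell and 4 rose. Among all tested genes 20.1% fell and 21.5% rose, shares that apply beside the list counts below as well. With library size alone 1 relative fell and 4 rose (4.65% and 47.6% of all tested genes), and the median log2 fold change moved from -0.21 to 0.24. With at least 10 counts in every liver, 2 relatives fell and 3 rose. Ccs, the chaperone that loads copper into SOD1, fell from 122 ± 1.36 to 82.4 ± 5.26 CPM (n = 3), with a log2 fold change of -0.56 (SE 0.08, edgeR adjusted p = 0.0022), but at -0.10 did not pass with library size alone (edgeR adjusted p = 0.475). Prdx4, the peroxiredoxin of the endoplasmic reticulum, fell from 71.0 ± 1.10 to 49.4 ± 2.22 CPM (log2 fold change -0.52, edgeR adjusted p = 0.00193), and was at -0.07 with library size alone. Prdx2 had a log2 fold change of -0.22 (edgeR adjusted p = 0.042), missed the threshold with any 1 of the 6 livers left out (edgeR adjusted p between 0.0553 and 0.128), and turned to 0.24 with library size alone. Sod3, the extracellular dismutase, and Txn1, the cytosolic thioredoxin, were at -0.23 and -0.21 and did not pass (edgeR adjusted p = 0.573 and 0.173).

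The glutathione peroxidase relatives had the largest differences. Gpx3, the secreted plasma form, was at 11.1, 11.7 and 16.5 CPM in WT and at 244, 113 and 120.0 CPM in Hom livers. This was a 12.1-fold higher mean (log2 fold change 3.60, SE 0.35, edgeR adjusted p = 0.000732), with Hom replicate 1 the highest. Gpx2, known from epithelia of the gut, had 10, 2 and 2 counts in WT and 138, 220 and 127 counts in Hom livers (log2 fold change 4.62, SE 0.52, edgeR adjusted p = 0.00108). Gpx7 and Gpx8, both of the endoplasmic reticulum, rose 4.27-fold and 2.83-fold (edgeR adjusted p = 0.00124 and 0.00739), from WT means of 1.09 and 0.77 CPM. Gpx6 went the other way, with 50, 187 and 51 counts in WT livers and 1, 3 and 7 counts in Hom livers (log2 fold change -5.17, SE 0.84, edgeR adjusted p = 0.00394). As livers were left out 1 at a time, Gpx6 ran from -5.99 to -4.17 and Gpx2 from 4.28 to 5.73. Gpx5 and Prdx6b had at most 1 count in any liver and were not tested. Gpx1 remained the most abundant of the family in every liver.

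**Figure D4:**
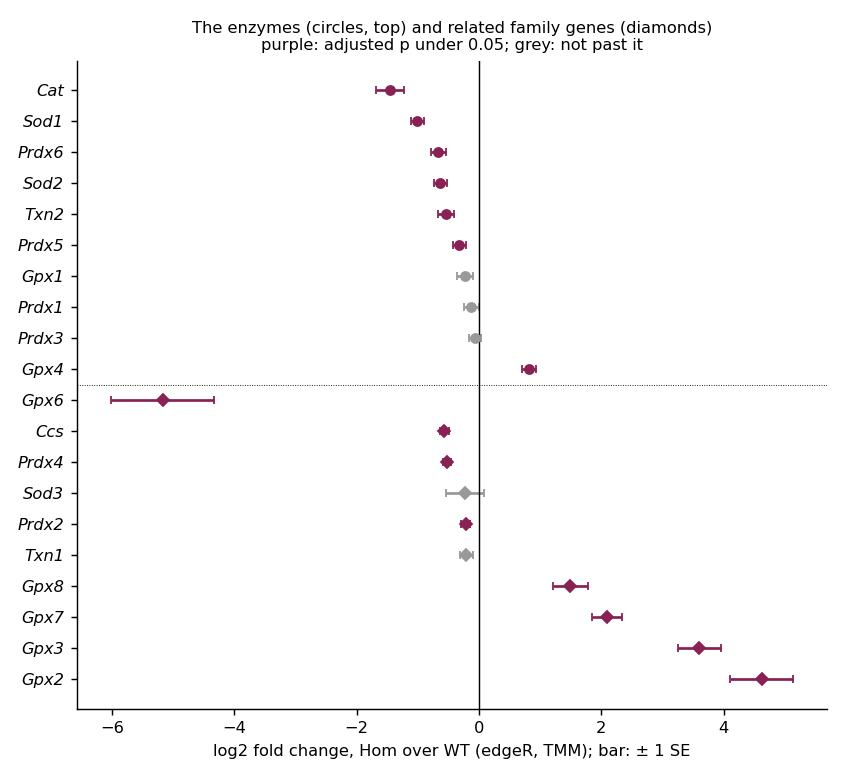
Log2 fold change (Hom over WT, x axis) with ± 1 SE for the 10 enzymes (circles, above the dotted line) and 10 tested relatives (diamonds, below), purple where the adjusted p was under 0.05 and grey otherwise. The 10 enzymes span -1.46 to 0.81, and the glutathione peroxidase relatives span -5.17 to 4.62.

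Enzymes that recycle thiols and glutathione were represented by 17 genes, of which 9 fell and 2 rose (1 and 7 with library size alone), with a median log2 fold change of -0.29. Gclc, the catalytic subunit of the rate-limiting step of glutathione synthesis, was at 516, 352 and 340.3 CPM in WT and at 105, 179 and 144 CPM in Hom livers, and its log2 fold change was -1.5 (SE 0.24, edgeR adjusted p = 0.00382). Txnrd2, the mitochondrial thioredoxin reductase that acts on TXN2, fell as well, by 0.59 on the log2 scale (SE 0.08, edgeR adjusted p = 0.00211), while library size alone gave -0.13 (edgeR adjusted p = 0.356). Srxn1, sulfiredoxin, which repairs over-oxidised peroxiredoxins, rose 2.07-fold (edgeR adjusted p = 0.0029), and Gss, glutathione synthetase, rose 1.3-fold (edgeR adjusted p = 0.031). The call of Gss was kept without WT replicate 1 and lost without any other liver (edgeR adjusted p up to 0.11), which left 1 rising gene in the list. Of 18 genes that supply NADPH, the electron source of both systems, 8 fell and 3 rose (1 and 5 with library size alone). Without WT replicate 2 or Hom replicate 2 these were 5 and 1, and without WT replicate 3 or Hom replicate 1 they were 7 and 1. Nadk2, the mitochondrial NAD kinase, fell to 54% of WT (log2 fold change -0.89, edgeR adjusted p = 0.00206) and Mthfd1 fell to 60.9% (log2 fold change -0.71, edgeR adjusted p = 0.00306). Pgd of the pentose phosphate pathway rose 1.55-fold (edgeR adjusted p = 0.0121), as did Mthfd1l 4.64-fold from a WT mean of 0.664 CPM (edgeR adjusted p = 0.0319). Mthfd1l was highest in Hom replicate 1, without which its log2 fold change went from 2.18 to 1.45 and missed the threshold (edgeR adjusted p = 0.0744), as it did without WT replicate 2, WT replicate 3 or Hom replicate 2 (edgeR adjusted p up to 0.0905). GPX1 and GPX4 are selenoproteins, and of 9 genes of selenoprotein synthesis 4 fell and 0 rose in edgeR's test (0 higher also at an unadjusted p under 0.05 and in DESeq2). Among those that fell were Sephs2, which makes the selenium donor (831 ± 154 to 439 ± 37.3 CPM, log2 fold change -0.92, edgeR adjusted p = 0.006), and Sephs1 (-0.37, edgeR adjusted p = 0.00823). With library size alone 1 of the 9 fell and 1 rose, and without Hom replicate 3 only 2 fell.

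Sources of superoxide and peroxide were taken as a further pair of lists. Of 8 tested peroxisomal oxidases, 5 fell and 1 rose (4 and 2 with library size alone), with a median of -0.79. Hao1, glycolate oxidase, fell from 222 ± 49.0 to 58.7 ± 10.3 CPM (log2 fold change -1.92, SE 0.20, edgeR adjusted p = 0.000842), Pipox fell to 49.2% of WT (edgeR adjusted p = 0.000478), and Ddo rose 1.52-fold (edgeR adjusted p = 0.0345). Without WT replicate 1, WT replicate 2, Hom replicate 2 or Hom replicate 3 the call of Ddo was lost and 0 of the list rose (edgeR adjusted p up to 0.116). Of 11 tested NADPH oxidase and molybdenum oxidase genes, 2 fell and 3 rose, with a median of 0.63. With library size alone the counts were 1 and 5, DESeq2 gave 2 and 5, and without WT replicate 1 they were 1 and 7. Without WT replicate 2, WT replicate 3 or Hom replicate 2 they were 1 and 2. Cybb, the catalytic subunit of the phagocyte oxidase, was at 28.5, 13.3 and 11.8 CPM in WT and at 276, 223 and 181 CPM in Hom livers, 12.7-fold higher in the mean (edgeR adjusted p = 0.000788), and its partner Cyba, named after its value was seen, rose 2.1-fold (edgeR adjusted p = 0.0388), a call lost without WT replicate 2 or 3 or Hom replicate 2 or 3 (edgeR adjusted p up to 0.121). Duox2 had 0 counts in all WT livers and 18, 38 and 42 counts in Hom livers, at least 23.7-fold higher against a floor of 3 counts over the WT group. Nox4, the constitutive oxidase, was at 47.8 ± 6.52 CPM in WT and 22.3 ± 9.43 CPM in Hom livers (log2 fold change -1.10, edgeR adjusted p = 0.0307), and it did not pass with library size alone (edgeR adjusted p = 0.163) or without any 1 of the WT livers or Hom replicate 2 (edgeR adjusted p up to 0.0959). Aox3, an aldehyde oxidase, fell to 34% of WT (edgeR adjusted p = 0.00801).

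Markers of liver cell types were counted in the same way. Of 38 hepatocyte markers, 25 fell and 2 rose, with a median log2 fold change of -0.70. With library size alone 13 fell and 4 rose, with a median of -0.25. Their summed level was 216695 to 255237 CPM in WT and 111473 to 166567 CPM in Hom livers. Without Hom replicate 3, 16 fell and 1 rose. Alb itself fell to 41.8% of WT (edgeR adjusted p = 0.00991, and 0.0639 without Hom replicate 3) and stayed at 39577 CPM or more in every liver, so that the tissue label held. Cholangiocyte markers rose in 11 of 12 (76.9 to 106 CPM summed in WT and 651 to 915 CPM in Hom livers), the most abundant in Hom livers being Spp1, at 13.8-fold. Macrophage markers rose in 7 and fell in 3 of 18 (393 to 896 CPM, with WT replicate 1 the highest, against 941 to 1243 CPM), among them Mpeg1 at 3.51-fold, while 13 rose without WT replicate 1, 4 without WT replicate 2, WT replicate 3 or Hom replicate 2, and 1 fell without Hom replicate 3. With library size alone 12 macrophage markers rose and 2 fell. Stellate cell and fibroblast markers rose in 10 and fell in 2 of 18 (620.3 to 729 against 936 to 1025 CPM), with Dcn, the most abundant, at 0.12 and not past the test (edgeR adjusted p = 0.506). On library size alone 13 of this list rose and 2 fell. Endothelial markers fell in 7 of 13 (368 to 492 against 284 to 289 CPM), with Eng at -0.24 and not past the test (edgeR adjusted p = 0.116). With library size alone 4 of them fell and 2 rose, and the median log2 fold change moved from -0.54 to -0.09. Of 7 neutrophil markers tested, 0 passed edgeR's test, 0 had an unadjusted p under 0.05 and 0 passed in DESeq2 (6.22 to 170 against 16.4 to 58.2 CPM, with the most abundant, Ngp, at an adjusted p of 0.305 by edgeR), but 3 rose without WT replicate 1. Lymphocyte markers rose in 1 of 7 (6.54 to 10.4 against 8.95 to 15.4 CPM), in 2 without WT replicate 1 or Hom replicate 1 and in 0 without any other liver, while the most abundant, Cd4, did not pass (edgeR adjusted p = 0.755). Erythroid markers fell in 1 of 6 (525 to 1413 against 706 to 2161 CPM), with Hbb-bs, the most abundant, not past the test (edgeR adjusted p = 0.24), and without WT replicate 1 it was 1 that fell and 4 that rose. No marker in any of these lists was at 0 in every liver of a group. The part of these markers in the results on the enzymes was not tested.

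Set beside the hepatocyte marker median, the enzymes fell on either side. Cat was below it by 0.75 and Sod1 by 0.31 on the log2 scale (-0.75 and -0.31). Sod2, Prdx6 and Txn2 were near it, at 0.07, 0.04 and 0.16 above. Prdx5, Gpx1, Prdx1 and Prdx3 were above it by 0.38, 0.47, 0.58 and 0.64, and Gpx4 by 1.52. These are differences of fitted values and carry no test.

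**Figure D5:**
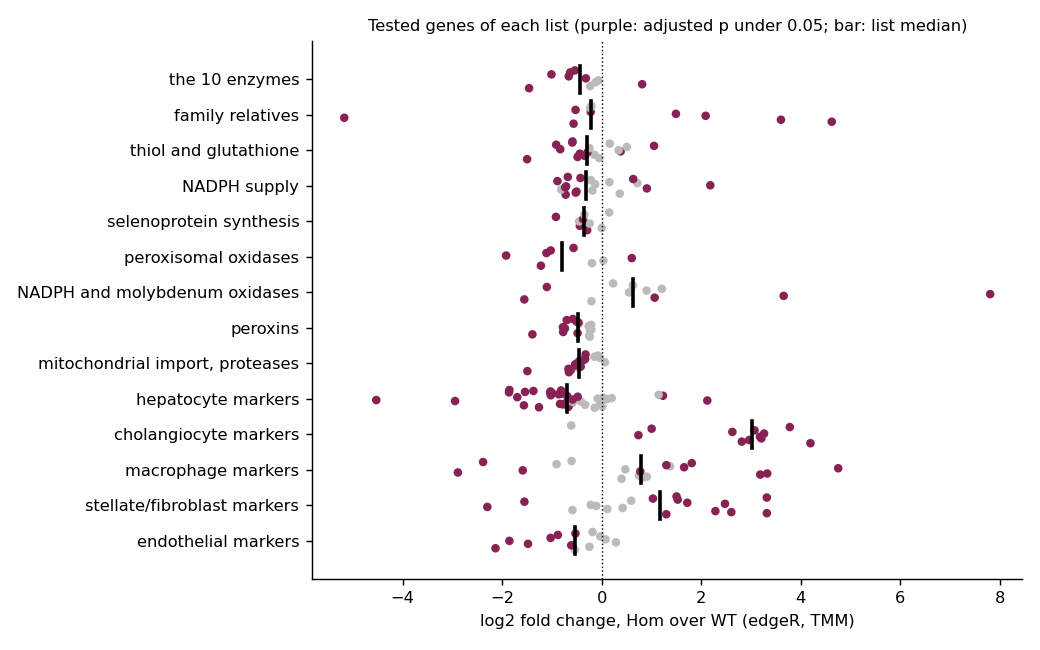
Log2 fold change (Hom over WT, x axis) of every tested gene in each list, purple where the adjusted p was under 0.05, with a black bar at the list median. The enzymes have a median of -0.43, hepatocyte markers of -0.70 and cholangiocyte markers of 3.02; the point at the far right is Duox2, whose fitted value rests on 0 counts in WT livers and is no measure of its size.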

How the data were processed

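Groups (3 WT and 3 Hom mice) follow the genotype in the sample labels, and whole-liver RNA was extracted with Trizol and sequenced on the DNBSEQ platform. The submitters' processing notes name HISAT2 2.0.4, Bowtie2 2.2.5, RSEM 1.2.12 and the mm9 build, with no order of use. The annotation and strandedness are not given in the sources used here. The authors deposited estimated counts (expected counts, unscaled, 65.9% of them whole), FPKM and TPM for each of 17975 genes. The authors' FPKM values were used only to recover the transcript length behind each value. The authors' TPM values were used only for levels between genes and for the ranges of the enzymes in each group. The authors' group means, 6 columns, carry crossed names for all 17975 genes and were not used.

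Counts were rounded to integers and fitted with edgeR 4.0.16 under R 4.3.3 (filterByExpr, TMM, glmQLFit and glmQLFTest, Benjamini-Hochberg adjustment over 13805 genes, threshold 0.05, no minimum fold change). SEs came from the fold change and the F statistic. Ratios within livers were compared by an exact two-sided permutation test, adjusted over 8 ratios, of which 7 are given and 1 is not reported here. The p-values measure the spread between 3 mice per group. Procedures were tested on simulated data. Alternatives were DESeq2 1.42.0, scaling by library size alone or by upper quartiles, a filter of 10 counts per liver or none, a replicate block, loess correction (span 0.5) for the implied length (known for 94.8% of tested genes), this correction with the block, each liver left out in turn, and a minimum log2 difference of 1 in size. Leaving out WT replicate 1 and Hom replicate 1 together was added after seeing the data.

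The members and all gene lists were chosen with earlier results of these data known. Genes named were Nek7, the 10 enzymes, their family relatives, the 2 lower and 2 higher genes with the smallest adjusted p under the threshold in each other pathway list, and the most abundant gene of each marker list. Promoter windows are RefSeq on GRCm38.p6, which is not the build of the notes, so no position of a gene in the authors' files is given. Pseudogenes annotated for 2 enzymes (Gpx4-ps2 and Prdx6-ps2) had no row among the genes analysed here, and how reads shared with them were assigned was not tested.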

Additional observations from a re-analysis of the deposited data

How the results depend on the processing

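Of 150 comparisons of an enzyme's fold change with an alternative, 126 kept their direction and side of the threshold, 15 lost the call, 8 turned direction and 1 (Gpx1 under DESeq2) gained a call in its own direction. Prdx3 turned and gained a call with library size alone (edgeR adjusted p = 0.0257). Library size alone gave 2 enzymes lower and 2 higher instead of 6 and 1, 642 genes lower and 6574 higher of all tested instead of 2780 and 2974, and 13 pathway list genes lower and 27 higher instead of 53 and 13. It turned Gpx1 to 0.22, Prdx1 to 0.33, Prdx3 to 0.40 and Prdx5 to 0.14. Prdx3 was also positive with upper-quartile factors (0.027), with the gene length correction (0.024), with that and the replicate block (0.026) and without WT replicate 3 (0.0069), and ran from -0.14 upwards as livers were left out. The Prdx3 to Prdx1 ratio turned to -0.027 without WT replicate 1 and to -0.0081 without Hom replicate 2, and was at most 0.12. A minimum absolute log2 fold change of 1 left 2 enzymes lower and 0 higher, 575 and 1825 of all genes, and 10 pathway list genes lower. Leaving out each liver in turn gave 4 to 6 enzymes lower, 1 higher each time, 1767 to 2750 genes lower and 1986 to 3057 higher, with 38 to 52 pathway list genes lower and 8 to 17 higher. The lowest count of lower genes came without Hom replicate 3 (1767), the count without Hom replicate 2 was 1829, and pathway list genes higher were 8 without WT replicate 2 and 8 without Hom replicate 2. Without both WT replicate 1 and Hom replicate 1, 2871 genes were lower and 3339 higher, with 53 pathway list genes lower and 19 higher. The cause of these shifts was not tested, beyond the smaller number of livers.

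WT and Hom livers share the numbers 1 to 3 but are different mice. Deviations of same-numbered livers from their group means correlated at -0.109, -0.0563 and -0.0494. WT replicate 1 and Hom replicate 1 stood apart within their groups, so these correlations cannot show whether same-numbered livers shared a batch. With the replicate number as a block, 5 enzymes were lower and 1 higher (Prdx5 missed, edgeR adjusted p = 0.0639), with 2214 genes lower and 2383 higher, 44 pathway list genes lower and 11 higher. The smallest count of an enzyme in a liver was 1489, and depth was not varied. Gpx2, Gpx6 and Duox2 rest on few counts in 1 group. With 3 mice per group, no exact permutation p can go below 0.1.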

Other observations

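Genes of the machinery that carries these enzymes to their compartments were counted as well. Among all tested genes 20.1% fell and 21.5% rose (4.65% and 47.6% with library size alone). Catalase and part of PRDX5 enter peroxisomes through peroxins, and of 16 peroxin genes 9 fell and 0 rose in edgeR's test (0 higher also at an unadjusted p under 0.05 and in DESeq2), with a median log2 fold change of -0.47 (3 and 0 with library size alone, median -0.02). Pex11a, which promotes peroxisome proliferation, was at 75.6, 76.2 and 84.7 CPM in WT and at 26.3, 35.2 and 28.6 CPM in Hom livers, and its log2 fold change was -1.39 (SE 0.12, edgeR adjusted p = 0.000518), close to that of Cat. Pex6, an ATPase that recycles the import receptor, fell to 61.5% of WT (edgeR adjusted p = 0.00136), and was at -0.24 with library size alone (edgeR adjusted p = 0.146).

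SOD2, PRDX3 and TXN2 are imported into mitochondria, and of 17 genes of mitochondrial import, folding and proteolysis 12 fell and 0 rose, again with 0 higher at an unadjusted p under 0.05 and in DESeq2, and with a median of -0.45. With library size alone 1 fell and 3 rose, and the median was 0.00073. Hspa9, the matrix chaperone that pulls in precursors, fell from 494 ± 24.3 to 321 ± 7.43 CPM (log2 fold change -0.62, edgeR adjusted p = 0.00352), and Clpp, a matrix protease, fell to 63.4% of WT (log2 fold change -0.66, edgeR adjusted p = 0.00327). Prdx3 itself was at -0.06, and its difference from these genes was not tested. Hepatocyte markers had a median of -0.70 in the same livers, and their part in these values was not tested.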
